A study of Homo sapiens with 9 samples.

Results

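The genes described here encode the subunits, regulators and assembly factors of the proteasome. They were taken as the protein-coding rows whose symbol starts with PSM, a letter from A to G and a digit. The rule found 49 genes among the 36225 rows of the table, of which 17323 were protein-coding. By role, they were 7 subunits of the 20S alpha ring, 7 constitutive subunits of the beta ring, 4 immunoproteasome or thymoproteasome beta subunits, 6 ATPases and 3 other subunits of the 19S base, 8 subunits of the 19S lid, 3 chaperones of 19S assembly, 4 activators, 1 inhibitor (PSMF1) and 4 chaperones of 20S assembly. The remaining 2 genes, PSMC3IP and PSME3IP1, matched by symbol only. Of the 49 genes, 48 were tested, and PSMB11, the thymus-specific beta subunit, was at 0 FPKM in 8 of the 9 libraries and was not tested.

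The proteasome degrades proteins tagged with ubiquitin. Its barrel-shaped 20S core holds the proteolytic sites in the inner beta rings, and the outer alpha rings form the gate. The 19S particle binds the ubiquitin chain, removes it, and unfolds the substrate with a ring of ATPases. Interferon induces replacement beta subunits that form the immunoproteasome, known for its part in making peptides for MHC class I. When proteasome activity is short, the transcription factor NFE2L1 is known to raise the subunit genes together through antioxidant response elements in their promoters.

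RNA was sequenced from RBE cells, a human cholangiocarcinoma (bile duct cancer) line, in 3 groups of 3 libraries. One group was infected with a lentivirus for an shRNA to IDH1, the cytosolic isocitrate dehydrogenase (shIDH1), one with an shRNA to JOSD2, a Josephin-domain deubiquitinase (shJOSD2), and the control group with a scramble hairpin, so that every group carried a lentivirus. The labels name 1 hairpin for each target gene and give no source of replicates, such as separate infections. The p-values therefore cover the spread of these 9 libraries, and that spread may be technical. Levels are given as the deposited FPKM (fragments per kilobase of transcript, scaled to library size), with means ± SD over n = 3 libraries per group. Log2 changes, given ± SE, are from edgeR quasi-likelihood tests on the deposited counts of 21492 genes, and a gene was called where its Benjamini-Hochberg adjusted p was under 0.05.

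The targeted genes followed their labels. IDH1 was at 12.4, 13.1 and 12.3 FPKM in shIDH1 cells, against 45.6, 38.9 and 47.4 FPKM in control cells. JOSD2 was at 0.771, 0.708 and 0.906 FPKM in shJOSD2 cells, against 6.66, 6.31 and 6.15 FPKM in control cells. IDH1 was 3.48-fold lower in shIDH1 cells (edgeR adjusted p = 1.85e-09) and JOSD2 8.52-fold lower in shJOSD2 cells (edgeR adjusted p = 1.08e-07). Each was also lower under the other hairpin, with JOSD2 at 1.68 ± 0.174 FPKM in shIDH1 cells against 6.37 ± 0.260 FPKM in control cells, and IDH1 at 34.5 ± 1.56 FPKM in shJOSD2 cells against 44.0 ± 4.44 FPKM in control cells. Library totals lay between 66036276 and 71612713 counts. The biliary keratins were abundant in every group, with KRT19 at 524 ± 11.01 FPKM in shIDH1 cells, 415 ± 7.55 FPKM in shJOSD2 cells and 560.5 ± 55.2 FPKM in control cells. Of the 6 biliary markers, 2 were called higher and 2 lower in shIDH1 cells, with KRT7 at -0.88 ± 0.09 and KRT8 at 0.56 ± 0.08. In shJOSD2 cells 1 was called higher, SOX9 at 0.54 ± 0.10, and 4 lower. The 6 fibroblast markers summed to 7.41 to 8.31 FPKM in shIDH1 cells, 4.66 to 4.95 FPKM in shJOSD2 cells and 2.11 to 2.93 FPKM in control cells. Of them COL1A1 was 2.89-fold higher in shIDH1 cells, PDGFRB was 4.97-fold higher in shIDH1 cells and 5.71-fold higher in shJOSD2 cells, and DCN and LUM were at or near 0 in all libraries. Leukocyte markers summed to 26.7 to 30.2 FPKM in shIDH1 cells, 25.3 to 33.7 FPKM in shJOSD2 cells and 32.8 to 40.7 FPKM in control cells, most of it CD68, and endothelial markers to 1.25 FPKM or less in every library. In the hepatocyte transcripts ALB, APOA1, APOB and TTR, control replicates 2 and 3 stood above control replicate 1 and all hairpin libraries. APOA1 was at 2.51, 3.19 and 3.25 FPKM in shIDH1 cells, 3.68, 6.24 and 3.04 FPKM in shJOSD2 cells, and 2.91, 40.0 and 45.5 FPKM in control cells. FGB, another hepatocyte marker, was highest in shIDH1 cells, at 42.9 ± 1.61 FPKM in shIDH1 cells, 7.13 ± 0.187 FPKM in shJOSD2 cells and 1.70 ± 0.171 FPKM in control cells. SERPINA1 was the most abundant of the 6 hepatocyte markers over all libraries. It was at 48.9 ± 1.38 FPKM in shIDH1 cells, 46.3 ± 0.705 FPKM in shJOSD2 cells and 35.1 ± 2.36 FPKM in control cells. Of the 6, 2 were called higher and 3 lower in shIDH1 cells, and 2 higher and 4 lower in shJOSD2 cells. Because the control replicates differed in ALB, APOA1, APOB and TTR, the counts below are also given with control replicate 1 alone. Control replicates 2 and 3 are then left out. The part of any of these markers in the results was not tested. In RNA from whole cultures, fewer cells of a type and less RNA per cell cannot be told apart.

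Promoter sequences are shown for elements through which the known regulators of this family act. They are from RefSeq (GRCh38.p14), which had a promoter entry, 250 bases before to 50 bases after the start, for 43 of the 49 genes. The core of the antioxidant response element (TGACNNNGC, either strand) was found in 15 of these 43 genes (34.9%) and in 16.1% of the 27305 genes with an entry. It is set in capitals in these windows, which lie before the start of PSMG1 (chr21:39183611-39183649, minus strand), PSMG2 (chr18:12658684-12658722, plus strand), PSMD3 (chr17:39980755-39980793, plus strand), PSMA4 (chr15:78540645-78540683, plus strand), PSMD12 (chr17:67366719-67366757, minus strand) and PSMB3 (chr17:38752622-38752660, plus strand).
PSMG1: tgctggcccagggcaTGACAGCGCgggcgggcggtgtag
PSMG2: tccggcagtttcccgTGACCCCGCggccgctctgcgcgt
PSMD3: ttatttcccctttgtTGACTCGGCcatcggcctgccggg
PSMA4: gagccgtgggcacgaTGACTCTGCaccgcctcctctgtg
PSMD12: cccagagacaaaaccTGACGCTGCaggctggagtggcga
PSMB3: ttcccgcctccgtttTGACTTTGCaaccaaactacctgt

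The core of the interferon-stimulated response element (GAAA, any 2 bases and GAAA, on either strand) was found in 7 of the 43 genes (16.3%) and in 4.38% of all genes with an entry. Capitals mark it in the windows of the immunoproteasome subunits PSMB8 (chr6:32844037-32844056, minus strand) and PSMB10 (chr16:67936851-67936886, minus strand), the interferon-inducible activators PSME1 (chr14:24136194-24136213, plus strand) and PSME2 (chr14:24146614-24146653, minus strand), and the 20S chaperone PSMG4 (chr6:3258899-3258938, plus strand). In these 5 genes the element was the same run of letters, read on one strand or the other.
PSMB8: gtggcTTTCGCTTTCacttc
PSMB10: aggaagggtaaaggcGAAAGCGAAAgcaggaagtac
PSME1: accgcTTTCGCTTTCccttc
PSME2: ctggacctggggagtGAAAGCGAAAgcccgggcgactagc
PSMG4: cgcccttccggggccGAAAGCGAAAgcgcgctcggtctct

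Proteasome transcripts were lower under both hairpins. All 49 genes summed to 1308, 1276 and 1290 FPKM in shIDH1 cells, 1387, 1444 and 1498 FPKM in shJOSD2 cells, and 1531, 1680 and 1645 FPKM in control cells. No shIDH1 or shJOSD2 library reached the lowest control library. The shIDH1 libraries were also below every shJOSD2 library. As a share of counts, the family took 0.443 to 0.454% in shIDH1 cells, 0.489 to 0.517% in shJOSD2 cells and 0.542 to 0.593% in control cells.

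In shIDH1 cells against control, 34 of the 48 tested members fell (70.8%, against 25.6% of all tested genes called lower), 1 rose (2.08%, against 24.5% called higher) and 13 were not called. In all, 35 of 48 were called, against 50.1% of tested genes, and the higher shares of abundant genes are given below. By FPKM, 35 members lay wholly below the control range and 2 above it, against 28.3% and 28.6% of tested genes. The members' median log2 change was -0.32, beside 0.01 over all tested genes. The largest falls were those of PSMC3IP, PSMA2, PSMD2 and PSMG1, each over 2-fold, and the single rise was that of the ATPase PSMC2. With control replicate 1 alone, 21 members were lower and 3 higher. With upper-quartile scaling, which moved the median of all genes to 0.12, 24 were lower and 6 higher. The members' median relative to that of all genes was -0.33. Scaling shifts all genes by nearly the same amount, so this difference could hardly move and is no test of the scaling.

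In shJOSD2 cells against control, 31 of 48 fell (64.6%, against 20.1% of all tested genes called lower), 1 rose (2.08%, against 18.2%) and 16 were not called. In all, 32 of 48 were called, against 38.3% of tested genes, and here too the higher shares of abundant genes are given below. By FPKM, 25 members lay wholly below the control range and 3 above it, against 17.4% and 34.2% of tested genes. The median was -0.35, beside 0.03 over all tested genes. The largest falls were those of PSMC3IP and PSMA1, both over 2-fold, followed by PSMD3, PSMG2 and PSMB2, and the rise was that of the immunoproteasome subunit PSMB8. These values depend on the scaling. TMM factors were 1.07 to 1.08 in the shJOSD2 libraries and 0.942 to 0.985 in the other 6, so that edgeR changes in shJOSD2 cells lie below the ratios of the FPKM values. Without scaling factors, the median of all genes moved to 0.18, and 21 members were lower and 4 higher. The members' median relative to all genes was -0.37, a difference that scaling could hardly move. With control replicate 1 alone, 23 were lower and 1 higher.

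Abundant genes were called lower more often than all tested genes. Among the 6436 protein-coding genes with a mean of at least 5 FPKM, 44.2% were called lower and 31% higher in shIDH1 cells. In shJOSD2 cells 41.1% were called lower and 18.6% higher. Calls in either direction were thus about as common among abundant genes as among members in shIDH1 cells, and somewhat less common in shJOSD2 cells. The median log2 change of abundant genes was -0.11 in shIDH1 cells and -0.13 in shJOSD2 cells, beside -0.32 and -0.35 for the members. The members' offset from abundant genes was thus smaller than that from all tested genes. Abundant genes are the nearer background for a family whose members mostly lie above that level, and for the role classes below. In a class of so few genes, a single gene moves the share considerably. Both comparisons use the same control libraries. PSMC2 was higher in shIDH1 cells and lower in shJOSD2 cells, and PSMB8 was higher in shJOSD2 cells and not called in shIDH1 cells.

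**Figure D1:**
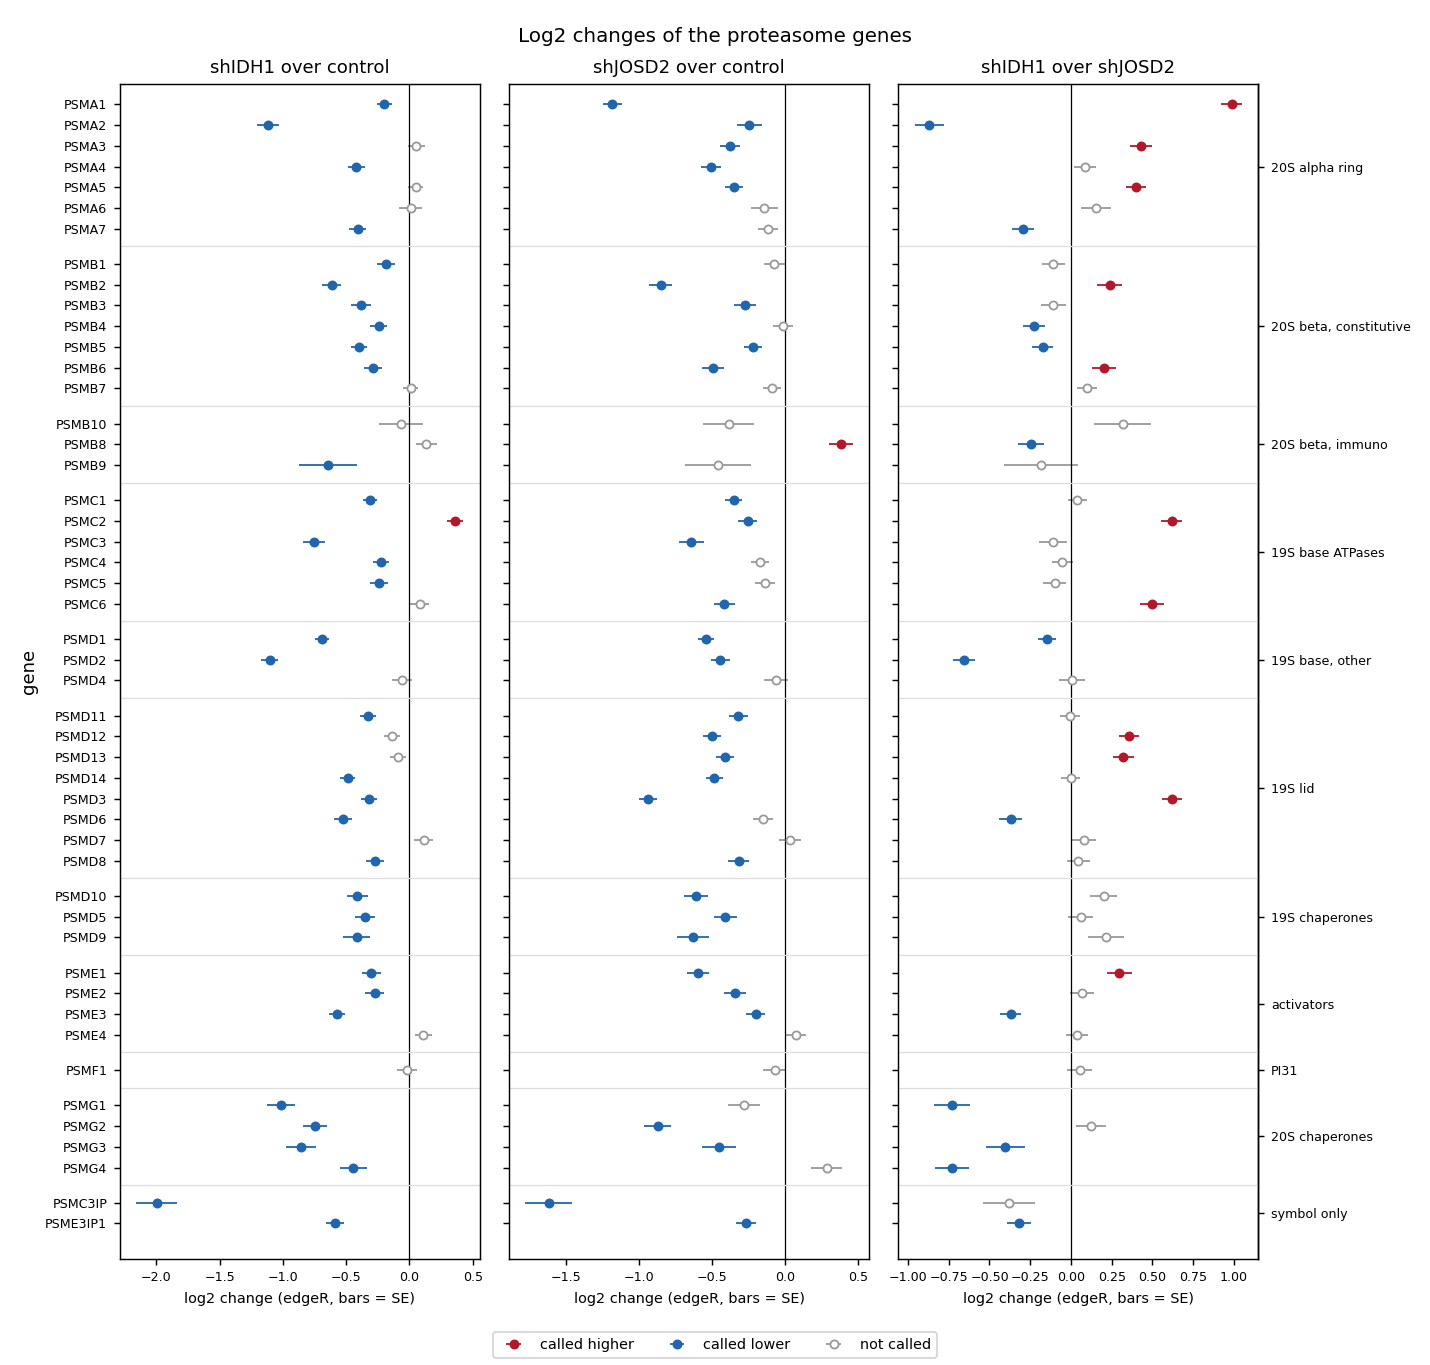
Log2 change (x axis) of each tested proteasome gene (rows, grouped by role) in shIDH1 over control, shJOSD2 over control and shIDH1 over shJOSD2, with bars for the SE. Of the 48 genes, 34 were called lower in shIDH1 cells and 31 in shJOSD2 cells against control, under TMM scaling, and 11 higher and 13 lower between the hairpins.

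Among the genes with PSM symbols, the alpha ring, which gates the core, held the largest differences between the hairpins. In shIDH1 cells 4 of 7 subunits fell and in shJOSD2 cells 5 of 7, with medians of -0.20 in shIDH1 cells and -0.35 in shJOSD2 cells. The shares of abundant genes called lower were 44.2% in shIDH1 cells and 41.1% in shJOSD2 cells. PSMA1 (ENSG00000129084, chr11:14504874-14643635) was at 42.3, 39.9 and 40.1 FPKM in shIDH1 cells, 21.8, 23.1 and 23.4 FPKM in shJOSD2 cells, and 43.6, 47.0 and 49.3 FPKM in control cells. The shJOSD2 libraries were lowest by a wide margin, and the shIDH1 libraries lay just below the control range. PSMA1 fell by 1.18 in shJOSD2 cells (2.27-fold lower, edgeR adjusted p = 9.11e-08), and its change in shIDH1 cells was -0.20 ± 0.06 (edgeR adjusted p = 0.0186). PSMA2 (ENSG00000106588, chr7:42916861-42932185) showed the opposite order, at 7.44, 6.05 and 6.05 FPKM in shIDH1 cells, 12.4, 13.0 and 14.2 FPKM in shJOSD2 cells, and 13.6, 13.2 and 15.5 FPKM in control cells. Its shIDH1 values lay far below the others, and the shJOSD2 and control ranges overlapped. It was 2.17-fold lower in shIDH1 cells (log2 change -1.12 ± 0.09, edgeR adjusted p = 4.46e-07) and changed by -0.25 ± 0.09 in shJOSD2 cells (edgeR adjusted p = 0.0412).

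The other alpha subunits moved less. PSMA4 was at 13.5, 12.8 and 11.8 FPKM in shIDH1 cells, 12.5, 13.2 and 14.0 FPKM in shJOSD2 cells, and 16.3, 17.7 and 16.9 FPKM in control cells, with both hairpins below every control library. PSMA4 was lower under both hairpins, at -0.42 ± 0.07 in shIDH1 cells and -0.51 ± 0.07 in shJOSD2 cells. PSMA3 was at 22.0, 20.7 and 20.2 FPKM in shIDH1 cells, 17.5, 16.3 and 17.7 FPKM in shJOSD2 cells, and 18.8, 20.6 and 20.9 FPKM in control cells, with the shJOSD2 libraries lowest and the other groups overlapping. PSMA3 and PSMA5 fell in shJOSD2 cells, at -0.38 ± 0.07 and -0.35 ± 0.06, and their uncalled values in shIDH1 cells were 0.05 ± 0.07 and 0.05 ± 0.06. PSMA7 was at 56.4, 57.7 and 59.4 FPKM in shIDH1 cells, 74.6, 77.7 and 82.9 FPKM in shJOSD2 cells, and 71.3, 77.9 and 80.7 FPKM in control cells, with the shIDH1 libraries apart from the other 6. PSMA7 was called only in shIDH1 cells, at -0.41 ± 0.07 against -0.12 ± 0.07 in shJOSD2 cells. PSMA6 was called in no comparison and was at 22.2 ± 0.558 FPKM in shIDH1 cells, 22.1 ± 1.36 FPKM in shJOSD2 cells and 22.0 ± 2.73 FPKM in control cells, but it was called higher in shIDH1 cells with control replicate 1 alone (0.27) and lower in shJOSD2 cells without control replicate 1 (-0.25). PSMA7 was called lower in shJOSD2 cells without control replicate 1 (-0.17). The call of PSMA1 in shIDH1 cells was lost in 6 of 22 alternatives, among them upper-quartile scaling and a fit of only the 2 groups compared. The others were without control replicate 2 (-0.17), control replicate 3 (-0.15) or shIDH1 replicate 2 (-0.19) and with control replicate 1 alone (-0.06). That of PSMA2 in shJOSD2 cells was lost in 12 of 22, among them no scaling factors, upper-quartile scaling, limma and the replicate block. The PSMA2 call was also lost without control replicate 3 (-0.17), shJOSD2 replicate 1 (-0.20) or shJOSD2 replicate 2 (-0.22) and with control replicate 1 alone (-0.17).

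Of the 7 constitutive beta subunits, 6 fell in shIDH1 cells and 4 in shJOSD2 cells, with medians of -0.29 in shIDH1 cells and -0.22 in shJOSD2 cells. Abundant genes were called lower at 44.2% in shIDH1 cells and 41.1% in shJOSD2 cells. PSMB5, PSMB6 and PSMB7 carry the chymotrypsin-like, caspase-like and trypsin-like sites. PSMB5 was at 83.0, 75.1 and 77.6 FPKM in shIDH1 cells, 91.1, 101 and 103 FPKM in shJOSD2 cells, and 101, 106 and 102 FPKM in control cells. All shIDH1 libraries were below the others, and the shJOSD2 range overlapped that of control. PSMB5 changed by -0.40 ± 0.06 in shIDH1 cells (edgeR adjusted p = 0.000185) and by -0.22 ± 0.06 in shJOSD2 cells (edgeR adjusted p = 0.0140).

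PSMB6 was at 40.7, 42.1 and 42.2 FPKM in shIDH1 cells, 39.8, 39.4 and 41.0 FPKM in shJOSD2 cells, and 46.2, 51.2 and 55.1 FPKM in control cells. Both hairpins lay below every control library and close to each other, with changes of -0.29 ± 0.07 in shIDH1 cells and -0.49 ± 0.07 in shJOSD2 cells (edgeR adjusted p = 0.00522 in shIDH1 cells and 0.000186 in shJOSD2 cells). The shIDH1 call of PSMB6 was lost with control replicate 1 alone (-0.11) and with upper-quartile scaling (-0.18). PSMB7 was at 105, 104 and 107 FPKM in shIDH1 cells, 105, 107 and 113 FPKM in shJOSD2 cells, and 99.2, 108 and 106 FPKM in control cells. Its 3 groups overlapped and it was called in no comparison, with log2 changes of 0.01 ± 0.06 in shIDH1 cells and -0.09 ± 0.06 in shJOSD2 cells against control.

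Among the beta subunits with no catalytic site, PSMB2 was at 23.9, 21.5 and 22.7 FPKM in shIDH1 cells, 21.4, 21.0 and 21.3 FPKM in shJOSD2 cells, and 30.9, 36.5 and 36.4 FPKM in control cells. It fell under both hairpins, by 0.61 in shIDH1 cells and by 0.85 in shJOSD2 cells on the log2 scale (edgeR adjusted p = 2.36e-05 in shIDH1 cells and 3.81e-06 in shJOSD2 cells), and no library of either hairpin reached the control range. PSMB3 was at 83.4, 80.7 and 81.4 FPKM in shIDH1 cells, 89.1, 98.7 and 105 FPKM in shJOSD2 cells, and 98.0, 114 and 107 FPKM in control cells, and PSMB4 was at 68.7, 66.8 and 66.1 FPKM in shIDH1 cells, 81.4, 85.9 and 93.5 FPKM in shJOSD2 cells, and 76.2, 84.1 and 77.5 FPKM in control cells. In both genes the shIDH1 libraries were the lowest and the shJOSD2 range overlapped that of control. PSMB3 was also lower under both, at -0.38 ± 0.08 in shIDH1 cells and -0.27 ± 0.08 in shJOSD2 cells, PSMB4 was called in shIDH1 cells at -0.24 ± 0.07 and not in shJOSD2 cells at -0.02 ± 0.07, and PSMB1 was called in shIDH1 cells at -0.18 ± 0.07 with an edgeR adjusted p of 0.0483. The PSMB1 call was lost in 18 of 22 alternatives. The shIDH1 calls were lost with control replicate 1 alone (-0.22) for PSMB3 and with control replicate 1 alone (-0.15) for PSMB4, which also lost it with upper-quartile scaling. In shJOSD2 cells the calls of PSMB3 and PSMB5 were lost without scaling factors, where 2 of the 7 subunits were called, and also without control replicate 2 (-0.20) or shJOSD2 replicate 1 (-0.21) and with control replicate 1 alone (-0.12) for PSMB3, and without shJOSD2 replicate 1 (-0.17) and with control replicate 1 alone (-0.16) for PSMB5.

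The immunoproteasome subunits differed among themselves. PSMB8, which replaces PSMB5, was at 7.07, 7.71 and 7.49 FPKM in shIDH1 cells, 9.09, 9.89 and 10.3 FPKM in shJOSD2 cells, and 6.83, 7.01 and 6.43 FPKM in control cells. All shJOSD2 libraries were the highest, and the shIDH1 values lay just above the control range. It rose by 0.38 in shJOSD2 cells (1.301-fold higher, edgeR adjusted p = 0.00264) and its change in shIDH1 cells was 0.13 ± 0.08 (edgeR adjusted p = 0.198).

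PSMB9, which replaces PSMB6, was low throughout, at 0.575, 0.780 and 0.730 FPKM in shIDH1 cells, 0.627, 1.08 and 0.928 FPKM in shJOSD2 cells, and 1.29, 1.01 and 0.986 FPKM in control cells. Its shIDH1 values were below the control range and its shJOSD2 values overlapped it. The change in shIDH1 cells was -0.64 ± 0.23 (edgeR adjusted p = 0.0328). The call was lost in 10 of 21 alternatives, among them limma at either pseudocount, upper-quartile scaling and no filter on low counts. It was also lost without control replicate 1 (-0.52), control replicate 2 (-0.68), shIDH1 replicate 1 (-0.52), shIDH1 replicate 3 (-0.69) or shJOSD2 replicate 3 (-0.63) and with control replicate 1 alone (-0.84). PSMB9 overlaps the more abundant TAP1 on the opposite strand, and without a known strand setting of the counting their reads cannot be told apart with certainty. PSMB10, which replaces PSMB7, was at 3.99, 3.97 and 5.17 FPKM in shIDH1 cells, 3.93, 3.12 and 4.64 FPKM in shJOSD2 cells, and 4.14, 4.58 and 5.04 FPKM in control cells, its 3 groups overlapped, and it was called in no comparison.

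Against the 6 catalytic subunits together, PSMB8, PSMB9 and PSMB10 made up 4.85, 5.33 and 5.58% of the summed FPKM in shIDH1 cells, 5.47, 5.39 and 5.81% in shJOSD2 cells, and 4.73, 4.53 and 4.52% in control cells. The libraries of both hairpins lay above every control library, and the hairpins overlapped each other. The summed level itself was 12.50 ± 0.878 FPKM in shIDH1 cells, 14.5 ± 1.17 FPKM in shJOSD2 cells and 12.4 ± 0.172 FPKM in control cells, so that in shIDH1 cells the sum was 100.5% of the control mean. The share means were 5.25 ± 0.374% in shIDH1 cells, 5.56 ± 0.224% in shJOSD2 cells and 4.59 ± 0.121% in control cells (SD, n = 3). The two-sided exact permutation p was 0.1 for each hairpin against control, the smallest that 3 against 3 allows (0.15 adjusted over the 3 comparisons), and 0.4 between the hairpins, so none passed 0.05.

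**Figure D2:**
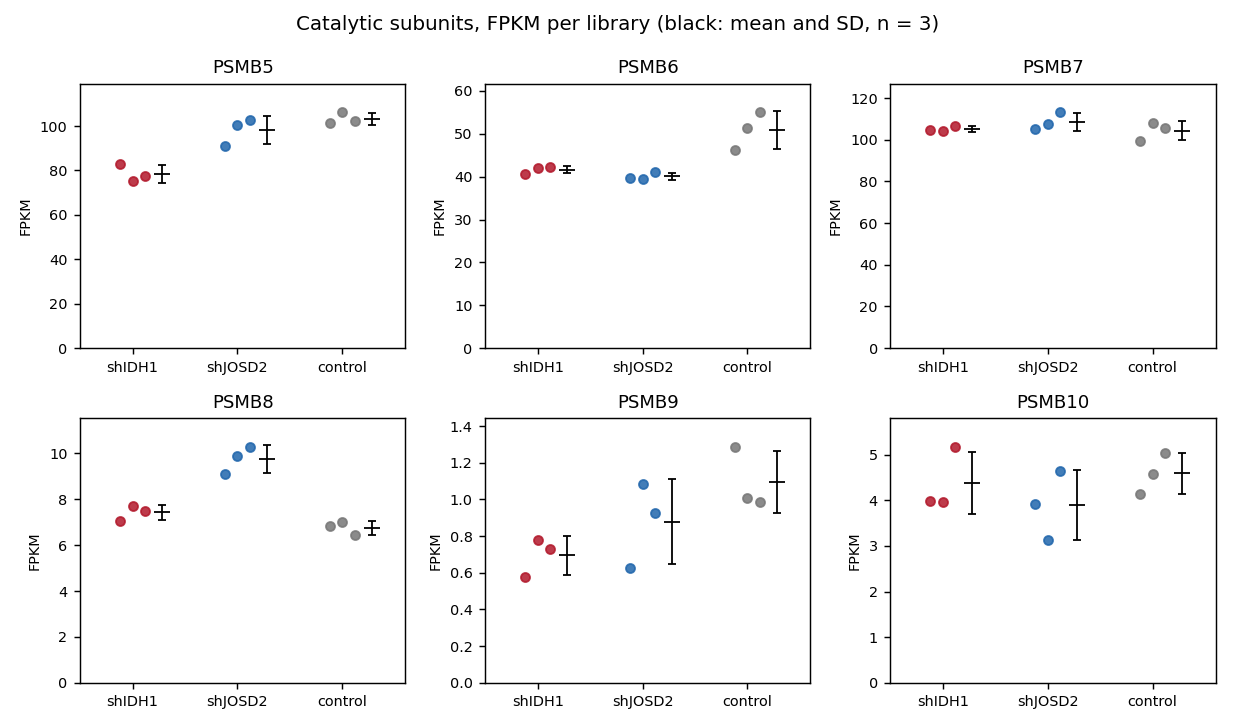
FPKM (y axis, from 0) of the 3 constitutive catalytic subunits (top row) and the 3 immunoproteasome subunits (bottom row) in each of the 9 libraries, with the mean and SD of each group in black. PSMB5 was at 78.6 FPKM on average in shIDH1 cells against 103 FPKM in control cells, while PSMB8 was at 9.75 FPKM in shJOSD2 cells against 6.76 FPKM in control cells.

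In the 19S base, the 6 ATPases that unfold the substrate had 4 falls and 1 rise in shIDH1 cells and 4 falls in shJOSD2 cells. The background of abundant genes called lower was 44.2% in shIDH1 cells and 41.1% in shJOSD2 cells. PSMC2 (ENSG00000161057, chr7:103344254-103369395) was at 37.1, 34.6 and 36.1 FPKM in shIDH1 cells, 23.6, 27.3 and 26.9 FPKM in shJOSD2 cells, and 27.6, 26.6 and 29.6 FPKM in control cells. The shIDH1 libraries were highest, apart from all others, and the shJOSD2 range overlapped that of control. It rose by 0.36 in shIDH1 cells (edgeR adjusted p = 0.000460) and its change in shJOSD2 cells was -0.26 ± 0.06 (edgeR adjusted p = 0.00727), a call that was lost without scaling factors and with control replicate 1 alone (-0.21). PSMC3 was at 44.7, 43.5 and 46.3 FPKM in shIDH1 cells, 51.6, 54.2 and 55.1 FPKM in shJOSD2 cells, and 65.9, 83.1 and 77.1 FPKM in control cells. Both hairpins were below every control library, with changes of -0.75 ± 0.09 in shIDH1 cells and -0.64 ± 0.09 in shJOSD2 cells (edgeR adjusted p = 1.21e-05 in shIDH1 cells and 9.15e-05 in shJOSD2 cells).

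PSMC1 was at 21.0, 19.8 and 20.7 FPKM in shIDH1 cells, 20.9, 22.8 and 22.6 FPKM in shJOSD2 cells, and 24.5, 25.8 and 25.9 FPKM in control cells, with both hairpins below every control library. PSMC1 was also lower under both hairpins, at -0.31 ± 0.06 in shIDH1 cells and -0.35 ± 0.06 in shJOSD2 cells. PSMC6 was at 8.28, 8.39 and 8.07 FPKM in shIDH1 cells, 6.55, 6.04 and 6.79 FPKM in shJOSD2 cells, and 7.55, 8.32 and 7.47 FPKM in control cells, with the shJOSD2 libraries lowest and the other groups overlapping. PSMC6 was called in shJOSD2 cells at -0.42 ± 0.07 and not in shIDH1 cells, at 0.08 ± 0.07. PSMC4 and PSMC5 were called in shIDH1 cells, at -0.23 ± 0.06 and -0.24 ± 0.07, and not in shJOSD2 cells, at -0.17 ± 0.06 and -0.14 ± 0.07. The shIDH1 call was lost for PSMC4 without control replicate 3 (-0.18) and with control replicate 1 alone (-0.09), and for PSMC5 without control replicate 2 (-0.17) or control replicate 3 (-0.21) and with control replicate 1 alone (-0.06). In shJOSD2 cells both were called without control replicate 1 (-0.23) for PSMC4 and without control replicate 1 (-0.21) for PSMC5.

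The scaffold PSMD2 (ENSG00000175166, chr3:184299198-184309050), which docks ubiquitin-binding factors on the base, was the most abundant 19S member by mean FPKM over all libraries, at 64.0, 59.0 and 62.8 FPKM in shIDH1 cells, 106, 109 and 110.0 FPKM in shJOSD2 cells, and 127, 142 and 129 FPKM in control cells. The 3 groups did not overlap, with shIDH1 lowest and control highest. It was 2.15-fold lower in shIDH1 cells (log2 change -1.10 ± 0.07, edgeR adjusted p = 4.86e-08) and 1.36-fold lower in shJOSD2 cells (log2 change -0.44 ± 0.07, edgeR adjusted p = 0.000198). The second scaffold, PSMD1, was at 25.6, 23.2 and 22.8 FPKM in shIDH1 cells, 29.1, 29.0 and 29.6 FPKM in shJOSD2 cells, and 38.1, 37.6 and 39.7 FPKM in control cells. It had the same order of groups, with changes of -0.69 ± 0.05 in shIDH1 cells and -0.54 ± 0.05 in shJOSD2 cells (edgeR adjusted p = 3.75e-07 in shIDH1 cells and 7.79e-06 in shJOSD2 cells). PSMD4, a ubiquitin receptor, was called in no comparison and was at 41.2 ± 2.25 FPKM in shIDH1 cells, 45.4 ± 1.95 FPKM in shJOSD2 cells and 42.7 ± 3.49 FPKM in control cells.

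Of the 8 lid subunits, 5 fell in shIDH1 cells and 6 in shJOSD2 cells, beside 44.2% and 41.1% of abundant genes called lower in the same order. PSMD3 (ENSG00000108344, chr17:39980807-39997959) was at 40.4, 38.6 and 40.6 FPKM in shIDH1 cells, 29.1, 28.1 and 28.9 FPKM in shJOSD2 cells, and 47.5, 52.5 and 48.8 FPKM in control cells. The 3 groups did not overlap, with shJOSD2 lowest. It fell by 0.94 in shJOSD2 cells (1.92-fold lower, edgeR adjusted p = 4.11e-07) and by 0.32 in shIDH1 cells (edgeR adjusted p = 0.000918). PSMD14, the deubiquitinase that cuts the chain from the substrate, was at 10.48, 9.80 and 8.94 FPKM in shIDH1 cells, 10.7, 10.8 and 10.8 FPKM in shJOSD2 cells, and 13.6, 13.6 and 13.7 FPKM in control cells. Both hairpins were well below a narrow control range, and the shIDH1 values lay just below the shJOSD2 values, with changes of -0.49 ± 0.06 in shIDH1 cells and -0.49 ± 0.06 in shJOSD2 cells (edgeR adjusted p = 1.65e-05 in shIDH1 cells and 3.58e-05 in shJOSD2 cells).

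PSMD6 was at 6.31, 6.33 and 6.15 FPKM in shIDH1 cells, 8.67, 8.76 and 9.46 FPKM in shJOSD2 cells, and 8.36, 9.57 and 9.02 FPKM in control cells. Only the shIDH1 libraries lay below the control range, with a change of -0.52 ± 0.07 (edgeR adjusted p = 4.34e-05) against -0.15 ± 0.07 in shJOSD2 cells, where the call was gained without control replicate 1 (-0.21). PSMD12 was at 16.0, 14.2 and 15.2 FPKM in shIDH1 cells, 12.5, 13.5 and 13.1 FPKM in shJOSD2 cells, and 16.1, 16.5 and 17.3 FPKM in control cells, with the shJOSD2 libraries lowest and the shIDH1 libraries just below the control range. PSMD12 and PSMD13 were called in shJOSD2 cells, at -0.50 ± 0.06 and -0.41 ± 0.06, and not in shIDH1 cells, at -0.14 ± 0.06 and -0.09 ± 0.06. PSMD11 was at 14.7, 13.5 and 13.8 FPKM in shIDH1 cells, 15.3, 16.0 and 15.3 FPKM in shJOSD2 cells, and 17.0, 16.3 and 19.2 FPKM in control cells, without overlap between the groups and with shIDH1 lowest. PSMD11 and PSMD8 fell under both hairpins, between -0.27 and -0.33 on the log2 scale. Both calls in shJOSD2 cells were lost without scaling factors, and PSMD8 lost its call with control replicate 1 alone (-0.12) in shIDH1 cells and with control replicate 1 alone (-0.17) in shJOSD2 cells. PSMD7, the inactive partner of PSMD14, was not called in any comparison and was at 52.4 ± 0.293 FPKM in shIDH1 cells, 54.7 ± 2.10 FPKM in shJOSD2 cells and 48.2 ± 4.32 FPKM in control cells. PSMD7 was called higher in shIDH1 cells without control replicate 2 (0.21) and with control replicate 1 alone (0.25) and in shJOSD2 cells without scaling factors, and without control replicate 1, PSMD12 was called lower in shIDH1 cells (-0.17).

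Of the proteasome classes, the assembly factors of the core had the lowest median in shIDH1 cells. All 4 chaperones of the 20S core fell there, with a median of -0.80, and 2 of 4 in shJOSD2 cells. They summed to 19.1, 17.5 and 17.3 FPKM in shIDH1 cells, 24.4, 27.0 and 27.1 FPKM in shJOSD2 cells, and 30.1, 32.9 and 34.8 FPKM in control cells. The 3 groups did not overlap. PSMG1, which pairs with PSMG2 to build the alpha ring, was at 6.91, 5.96 and 5.58 FPKM in shIDH1 cells, 10.4, 11.96 and 11.48 FPKM in shJOSD2 cells, and 11.03, 12.05 and 14.1 FPKM in control cells. The shIDH1 libraries were lowest and the shJOSD2 range overlapped that of control. It was 2.02-fold lower in shIDH1 cells (log2 change -1.01 ± 0.11, edgeR adjusted p = 7.91e-06), and its change in shJOSD2 cells was -0.28 ± 0.11 (edgeR adjusted p = 0.0592), called without control replicate 1 (-0.37). PSMG2 was at 6.79, 5.59 and 5.70 FPKM in shIDH1 cells, 5.79, 6.33 and 6.21 FPKM in shJOSD2 cells, and 10.2, 10.46 and 9.65 FPKM in control cells. Both hairpins lay far below control, with changes of -0.75 ± 0.09 in shIDH1 cells and -0.87 ± 0.09 in shJOSD2 cells (edgeR adjusted p = 2.21e-05 in shIDH1 cells and 1.38e-05 in shJOSD2 cells). PSMG2 overlaps SPIRE1 by 92 bases and CEP76 by 40945 bases on the opposite strand, with counts at 298% and 31.7% of its own.

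PSMG3 and PSMG4 form the second pair. PSMG3 was at 4.54, 5.16 and 5.28 FPKM in shIDH1 cells, 6.88, 7.24 and 7.83 FPKM in shJOSD2 cells, and 7.87, 9.33 and 9.90 FPKM in control cells, without overlap between the groups, and changed by -0.86 ± 0.12 in shIDH1 cells and -0.45 ± 0.12 in shJOSD2 cells (edgeR adjusted p = 6.64e-05 in shIDH1 cells and 0.00937 in shJOSD2 cells). The shJOSD2 call of PSMG3 was lost without scaling factors and without control replicate 3 (-0.38) and with control replicate 1 alone (-0.22). PSMG4 (ENSG00000180822, chr6:3231403-3291984) was at 0.853, 0.836 and 0.736 FPKM in shIDH1 cells, 1.38, 1.496 and 1.59 FPKM in shJOSD2 cells, and 1.04, 1.08 and 1.18 FPKM in control cells. Its groups did not overlap, with shIDH1 lowest and shJOSD2 highest. It fell by 0.44 in shIDH1 cells (edgeR adjusted p = 0.00389) and was at 0.28 ± 0.11 in shJOSD2 cells (edgeR adjusted p = 0.0518), a rise that was called in 10 of 22 alternatives, among them without control replicate 3 (0.34) or shJOSD2 replicate 1 (0.34). The shIDH1 call of PSMG4 was lost with control replicate 1 alone (-0.33). PSMG4 overlaps SLC22A23 and TUBB2B on the opposite strand, whose counts were 174% and 97.0% of its own.

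The 3 chaperones of the 19S base, PSMD5, PSMD9 and PSMD10, fell under both hairpins. PSMD10, also known as gankyrin, was at 12.7, 11.9 and 10.1 FPKM in shIDH1 cells, 10.9, 10.7 and 11.8 FPKM in shJOSD2 cells, and 15.8, 15.0 and 15.3 FPKM in control cells. PSMD9 was at 3.88, 4.43 and 4.30 FPKM in shIDH1 cells, 4.15, 3.65 and 4.25 FPKM in shJOSD2 cells, and 5.05, 6.43 and 5.32 FPKM in control cells. Neither hairpin reached the control range in either gene. PSMD5 was at 13.9, 13.2 and 11.7 FPKM in shIDH1 cells, 12.8, 14.6 and 13.8 FPKM in shJOSD2 cells, and 17.2, 14.7 and 17.6 FPKM in control cells, and its hairpin libraries also lay below every control library. The log2 changes of PSMD10 were -0.41 ± 0.08 in shIDH1 cells and -0.61 ± 0.08 in shJOSD2 cells, those of PSMD9 -0.42 ± 0.11 in shIDH1 cells and -0.63 ± 0.11 in shJOSD2 cells, and those of PSMD5 -0.35 ± 0.08 in shIDH1 cells and -0.41 ± 0.08 in shJOSD2 cells. None passed the test between the hairpins (edgeR adjusted p = 0.0694, 0.143 and 0.588 for PSMD10, PSMD9 and PSMD5), with differences of 0.20 ± 0.08, 0.21 ± 0.11 and 0.06 ± 0.08, and PSMD10 was called higher without shIDH1 replicate 3 (0.28). The shIDH1 call of PSMD9 was lost with control replicate 1 alone (-0.23).

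**Figure D3:**
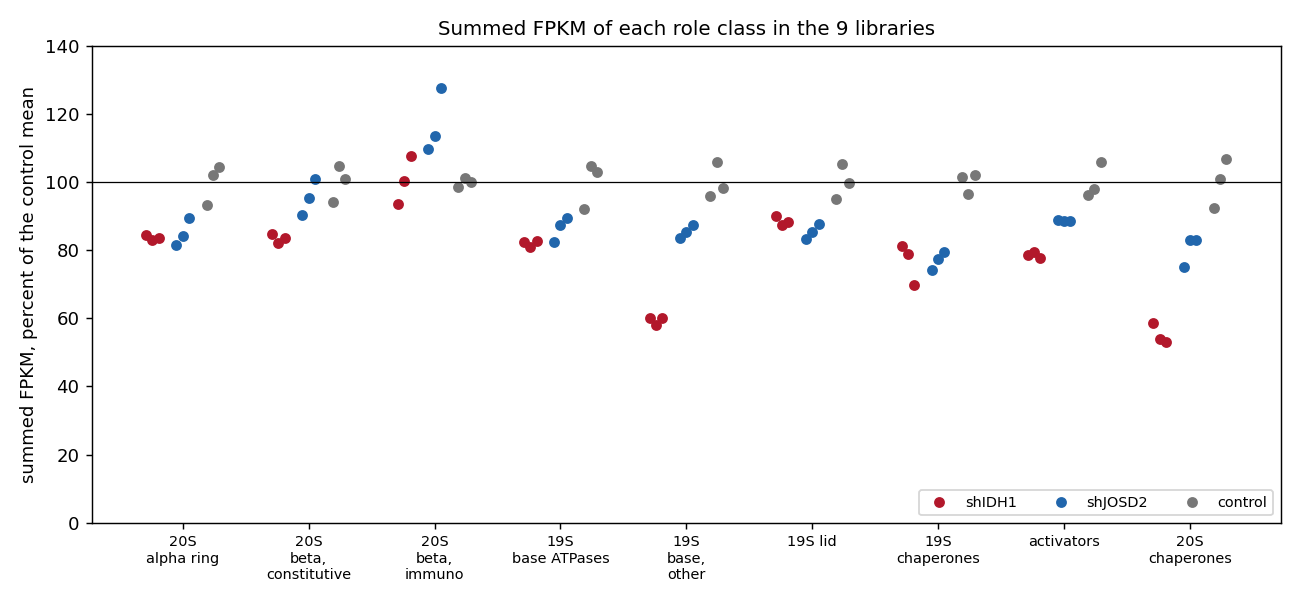
Summed FPKM of the genes of each role class (x axis) in each library, as a percent of the control mean (y axis, from 0). The 20S chaperones stood at 55.1% and the other 19S base subunits at 59.4% of the control mean in shIDH1 cells, while the immunoproteasome subunits stood at 117% in shJOSD2 cells.

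Of the 4 activators, the interferon-inducible pair PSME1 and PSME2 and the nuclear PSME3 fell under both hairpins. PSME3 was at 28.05, 28.02 and 25.5 FPKM in shIDH1 cells, 38.5, 40.4 and 37.7 FPKM in shJOSD2 cells, and 38.4, 39.1 and 43.7 FPKM in control cells. The shIDH1 libraries lay apart from the other 6, with a change of -0.57 ± 0.06 (edgeR adjusted p = 1.03e-05), against -0.20 ± 0.06 in shJOSD2 cells. PSME1 was at 29.0, 31.1 and 32.4 FPKM in shIDH1 cells, 28.5, 25.6 and 29.4 FPKM in shJOSD2 cells, and 36.3, 38.0 and 39.5 FPKM in control cells. Both hairpins were below every control library, with changes of -0.30 ± 0.08 in shIDH1 cells and -0.60 ± 0.08 in shJOSD2 cells (edgeR adjusted p = 0.00535 in shIDH1 cells and 6.04e-05 in shJOSD2 cells). PSME2 was at 10.9, 10.3 and 10.2 FPKM in shIDH1 cells, 10.7, 11.54 and 10.95 FPKM in shJOSD2 cells, and 11.6, 13.0 and 13.3 FPKM in control cells, and the hairpins overlapped each other below the control range. Its changes were -0.28 ± 0.08 in shIDH1 cells and -0.34 ± 0.08 in shJOSD2 cells. The shIDH1 calls were lost with control replicate 1 alone (-0.20) for PSME1 and with control replicate 1 alone (-0.11) for PSME2, and both also with upper-quartile scaling (-0.19 for PSME1 and -0.17 for PSME2). In shJOSD2 cells without scaling factors, PSME1 alone was called lower and PSME4 was called higher. The shJOSD2 call of PSME2 was also lost with control replicate 1 alone (-0.19), and that of PSME3 without control replicate 3 (-0.14), shJOSD2 replicate 1 (-0.19) or shJOSD2 replicate 3 (-0.17) and with control replicate 1 alone (-0.10).

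The nuclear activator PSME4 and the inhibitor PSMF1 were called in no comparison. PSME4 averaged 11.2 ± 0.525 FPKM in shIDH1 cells, 12.1 ± 0.257 FPKM in shJOSD2 cells and 10.4 ± 1.17 FPKM in control cells. PSMF1 averaged 15.9 ± 1.11 FPKM in shIDH1 cells, 17.0 ± 0.524 FPKM in shJOSD2 cells and 16.1 ± 1.03 FPKM in control cells.

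Both genes that matched by symbol only fell. PSMC3IP (chr17:42572310-42577831), a partner of the meiotic recombinases and no proteasome subunit, was at 1.28, 1.07 and 1.11 FPKM in shIDH1 cells, 1.60, 1.80 and 1.59 FPKM in shJOSD2 cells, and 3.75, 5.06 and 5.05 FPKM in control cells. Its change was the largest of all members, 3.99-fold lower in shIDH1 cells and 3.07-fold lower in shJOSD2 cells (edgeR adjusted p = 5.71e-07 in shIDH1 cells and 8.18e-06 in shJOSD2 cells). It lies beside MLX on the opposite strand, with 930 bases in common, and the counts of MLX were 1032% of its own. PSME3IP1, which binds PSME3 in the nucleus, was at 13.7, 11.9 and 11.3 FPKM in shIDH1 cells, 16.4, 18.0 and 16.5 FPKM in shJOSD2 cells, and 19.6, 17.1 and 18.7 FPKM in control cells. The shIDH1 libraries were lowest, with a change of -0.59 ± 0.07, against -0.27 ± 0.07 in shJOSD2 cells, where the call was lost without scaling factors and without shJOSD2 replicate 1 (-0.24) or shJOSD2 replicate 3 (-0.24).

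Between the hairpins themselves, 11 of the 48 tested members were higher in shIDH1 cells (22.9%, against 20.8% of all tested genes) and 13 lower (27.1%, against 24%). In all, 24 of 48 were called, against 44.8% of tested genes. By FPKM, 9 members lay wholly above the shJOSD2 range and 24 below it, against 20.7% and 37.7% of tested genes. The called shares are near those of all tested genes. They are below those of genes with a mean of at least 5 FPKM, of which 35.7% were higher and 35% lower. The members' median difference was 0.04, beside -0.06 over all tested genes and 0.01 over those abundant genes. The members' median turned to -0.12 without scaling factors, where 8 members were higher and 19 lower. Members that differed in opposite directions lay in the same complexes. PSMA1 was 1.98-fold higher in shIDH1 cells (log2 difference 0.99 ± 0.06, edgeR adjusted p = 1.20e-07) and its ring partner PSMA2 1.83-fold lower (-0.87 ± 0.09, edgeR adjusted p = 5.44e-06). Within the 19S particle, PSMD3 and PSMC2 were higher by 0.62 each and PSMC6 by 0.50, whereas PSMD2 was lower (-0.66 ± 0.07, edgeR adjusted p = 5.32e-06). Among the 20S chaperones PSMG1, PSMG3 and PSMG4 were lower in shIDH1 cells, at -0.73 ± 0.11, -0.40 ± 0.12 and -0.73 ± 0.11, and PSMG2 did not pass the test, at 0.12 ± 0.09. The PSMG3 call was lost without shIDH1 replicate 1 (-0.33) or shJOSD2 replicate 3 (-0.35).

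Subunits made for a single particle did not all change alike, though the members spread less than tested genes as a whole. In shIDH1 cells the quartiles of the 48 tested members were -0.54 and -0.09, against -0.53 and 0.59 over all tested genes. In shJOSD2 cells they were -0.49 and -0.15, against -0.35 and 0.48. Quartiles of abundant genes alone were not taken, so the narrower spread is not set against genes of like level. The 14 constitutive 20S subunits had log2 changes between -1.12 and 0.05 in shIDH1 cells and between -1.18 and -0.02 in shJOSD2 cells, with medians of -0.27 in shIDH1 cells and -0.26 in shJOSD2 cells. The 17 subunits of the 19S particle lay between -1.10 and 0.36 in shIDH1 cells and between -0.94 and 0.03 in shJOSD2 cells, with medians of -0.27 in shIDH1 cells and -0.35 in shJOSD2 cells. Summed levels of the 20S constitutive subunits were 621 ± 8.36 FPKM in shIDH1 cells, 689 ± 36.2 FPKM in shJOSD2 cells and 744 ± 39.6 FPKM in control cells (SD, n = 3), and those of the 19S subunits 501 ± 7.43 FPKM in shIDH1 cells, 559.7 ± 16.6 FPKM in shJOSD2 cells and 652 ± 35.6 FPKM in control cells.

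**Figure D4:**
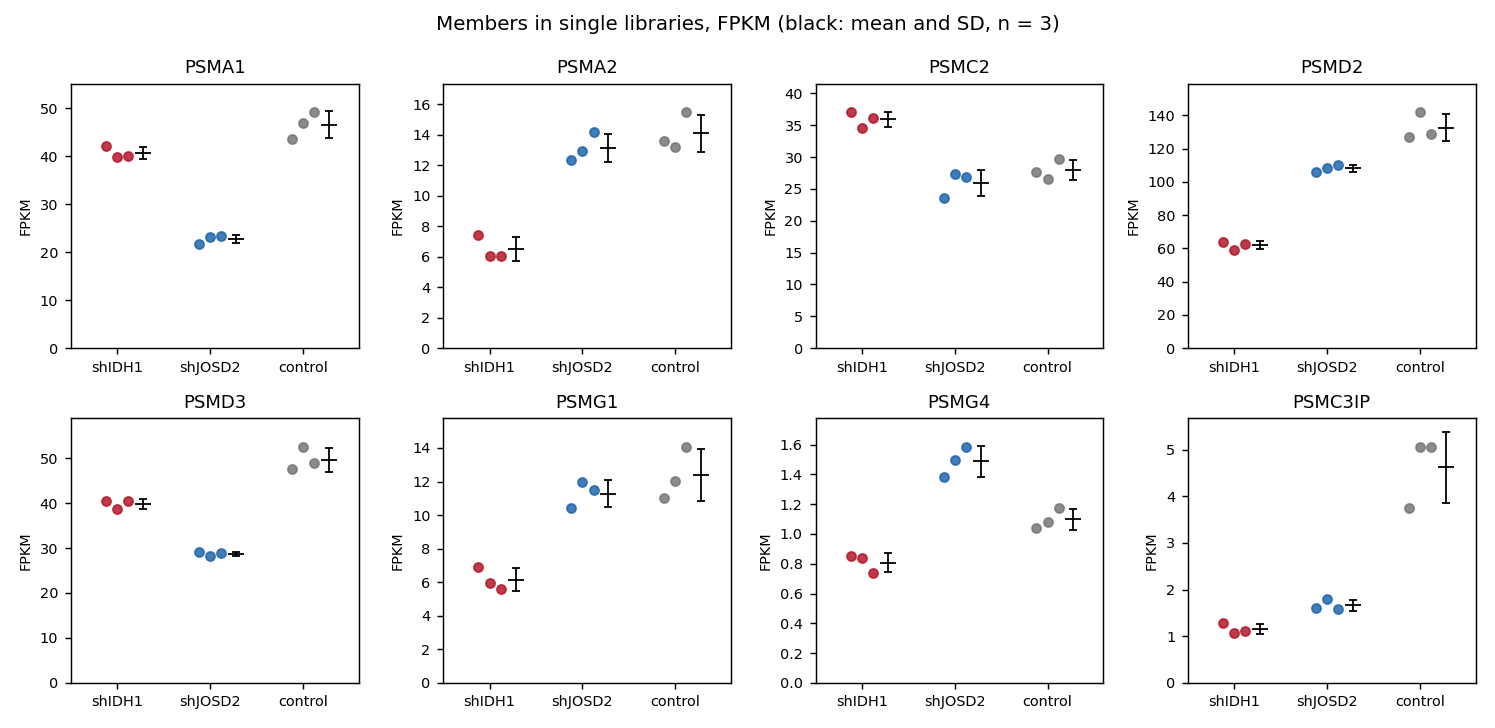
FPKM (y axis, from 0) of 8 members in each library, with the mean and SD of each group in black. PSMA1 and PSMD3 were lowest in shJOSD2 cells, PSMA2, PSMD2, PSMG1 and PSMG4 lowest in shIDH1 cells, and PSMC2 was highest in shIDH1 cells.

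Called members were found among genes with and without the promoter elements. Of the 15 members with the antioxidant response core, 13 were called lower in shIDH1 cells and 10 in shJOSD2 cells, with medians of -0.35 in shIDH1 cells and -0.46 in shJOSD2 cells. Of the 27 tested members with an entry and no such core, 17 were called lower in shIDH1 cells and 19 in shJOSD2 cells, with medians of -0.31 in shIDH1 cells and -0.32 in shJOSD2 cells. The genes with windows shown above ran from -1.01 (PSMG1) to -0.14 (PSMD12) in shIDH1 cells and from -0.94 (PSMD3) to -0.27 (PSMB3) in shJOSD2 cells. Of the 7 members with the interferon-stimulated core, 5 were called lower in shIDH1 cells, and 3 lower and 1 higher in shJOSD2 cells. Of the 35 tested members with an entry and no such core, 25 were called lower and 1 higher in shIDH1 cells, and 26 lower in shJOSD2 cells. Abundant genes called lower made up 44.2% in shIDH1 cells and 41.1% in shJOSD2 cells. PSMB8 and PSME1, which share the interferon-stimulated core, were called in opposite directions in shJOSD2 cells. The NF-Y box (CCAAT, either strand) was also searched. It was in 22 of the 43 genes (51.2%) and in 39.7% of all genes with an entry. In shIDH1 cells 17 of 21 tested members with the box were called lower and 1 higher, and 13 of 21 without it lower. The medians were -0.42 and -0.24. In shJOSD2 cells 16 with the box were called lower, and 13 lower and 1 higher without it. The medians were -0.32 and -0.39. These are counts of letters in a window, given with no test.

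Proteasome genes outside the PSM symbols moved in both directions. Of all tested genes, 25.6% were called lower and 24.5% higher in shIDH1 cells, and 20.1% lower and 18.2% higher in shJOSD2 cells. Of the genes with a mean of at least 5 FPKM, 44.2% were lower and 31% higher in shIDH1 cells, and 41.1% lower and 18.6% higher in shJOSD2 cells, and these shares are the background of the following lists. Of 12 such genes, 6 fell and 2 rose in shIDH1 cells, and 5 fell and 1 rose in shJOSD2 cells, with medians of -0.16 in shIDH1 cells and -0.18 in shJOSD2 cells. The counts lower are near those shares of abundant genes. SEM1, the smallest lid subunit, was at 0.897, 0.824 and 0.903 FPKM in shIDH1 cells, 2.07, 1.95 and 1.91 FPKM in shJOSD2 cells, and 1.53, 1.902 and 1.79 FPKM in control cells. Only the shIDH1 libraries were low, at -0.99 ± 0.11 (edgeR adjusted p = 7.91e-06), while shJOSD2 cells were at 0.04 ± 0.11. The proteasome-bound deubiquitinases UCHL5 and USP14 fell under both hairpins, UCHL5 at -1.17 ± 0.08 in shIDH1 cells and -0.67 ± 0.08 in shJOSD2 cells, and USP14 at -0.54 ± 0.07 in shIDH1 cells and -0.55 ± 0.07 in shJOSD2 cells. POMP, which completes the 20S core with the PSMG chaperones, was at -0.31 ± 0.08 in shIDH1 cells (edgeR adjusted p = 0.00743) and -0.18 ± 0.08 in shJOSD2 cells (edgeR adjusted p = 0.111). ADRM1, a ubiquitin receptor of the base, was not called in either, at -0.13 ± 0.07 in shIDH1 cells and -0.19 ± 0.07 in shJOSD2 cells.

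The list around NFE2L1 holds the related factors NFE2L2 and NFE2L3 and 5 genes for the processing of NFE2L1. Of its 8 genes, 6 rose and 1 fell in shIDH1 cells (median 0.89), and 4 fell and 4 were not called in shJOSD2 cells (median -0.21). NFE2L2 was at 0.82 ± 0.06 in shIDH1 cells and -0.11 ± 0.06 in shJOSD2 cells, and NFE2L3 at 0.96 ± 0.07 in shIDH1 cells and -0.35 ± 0.07 in shJOSD2 cells. NFE2L1 was at 84.1, 95.9 and 94.9 FPKM in shIDH1 cells, 49.2, 51.3 and 50.1 FPKM in shJOSD2 cells, and 61.7, 61.4 and 61.3 FPKM in control cells. The 3 groups did not overlap, with shIDH1 highest and shJOSD2 lowest. It rose by 0.57 in shIDH1 cells (edgeR adjusted p = 9.98e-06) and fell by 0.44 in shJOSD2 cells (edgeR adjusted p = 0.000174). DDI2, the protease that activates it, was at 0.997 ± 0.07 in shIDH1 cells and 0.13 ± 0.07 in shJOSD2 cells. SEL1L and SYVN1, which form the ubiquitin ligase of the endoplasmic reticulum, were at 1.11 ± 0.10 and 1.05 ± 0.12 in shIDH1 cells, and at -0.73 ± 0.10 and 0.16 ± 0.11 in shJOSD2 cells. VCP, the ATPase that extracts proteins from membranes, was lower under both, at -0.38 ± 0.06 in shIDH1 cells and -0.30 ± 0.06 in shJOSD2 cells.

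Of 14 genes for ubiquitin, its activating enzymes and the shuttle factors that carry substrates to the proteasome, 8 fell and 3 rose in shIDH1 cells, and 7 fell and 7 were not called in shJOSD2 cells (medians -0.24 in shIDH1 cells and -0.18 in shJOSD2 cells). Among abundant genes, 44.2% were lower in shIDH1 cells and 41.1% in shJOSD2 cells. NPLOC4, a cofactor of VCP, had the largest fall in shIDH1 cells (-1.21 ± 0.06, edgeR adjusted p = 9.47e-09) and was at -0.34 ± 0.06 in shJOSD2 cells. The shuttle RAD23B was at 83.0, 85.4 and 76.8 FPKM in shIDH1 cells, 30.4, 34.6 and 34.5 FPKM in shJOSD2 cells, and 62.4, 61.4 and 68.2 FPKM in control cells. It rose by 0.35 in shIDH1 cells and fell by 1.10 in shJOSD2 cells (edgeR adjusted p = 0.000740 in shIDH1 cells and 2.14e-07 in shJOSD2 cells). The receptor SQSTM1 rose in shIDH1 cells (0.65 ± 0.09) and was at -0.03 ± 0.09 in shJOSD2 cells.

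Of 11 genes of MHC class I presentation and interferon signalling, the usual company of the immunoproteasome, 8 rose and 2 fell in shIDH1 cells, and 3 rose and 4 fell in shJOSD2 cells. The shJOSD2 counts are near the shares of abundant genes. IRF1, a direct activator of PSMB9 and TAP1, was at 6.24, 7.65 and 8.61 FPKM in shIDH1 cells, 2.02, 2.28 and 2.03 FPKM in shJOSD2 cells, and 3.38, 3.31 and 3.58 FPKM in control cells. The groups did not overlap, with changes of 1.13 ± 0.11 in shIDH1 cells and -0.84 ± 0.11 in shJOSD2 cells (edgeR adjusted p = 3.41e-06 in shIDH1 cells and 9.28e-05 in shJOSD2 cells). NLRC5, the class I transactivator, was at -0.50 ± 0.13 in shIDH1 cells and 0.69 ± 0.13 in shJOSD2 cells, the reverse of IRF1. Of the peptide transporter, TAP1 was at 0.40 ± 0.08 in shIDH1 cells and 0.01 ± 0.08 in shJOSD2 cells, and TAP2 at -1.22 ± 0.08 in shIDH1 cells and -0.79 ± 0.08 in shJOSD2 cells.

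**Figure D5:**
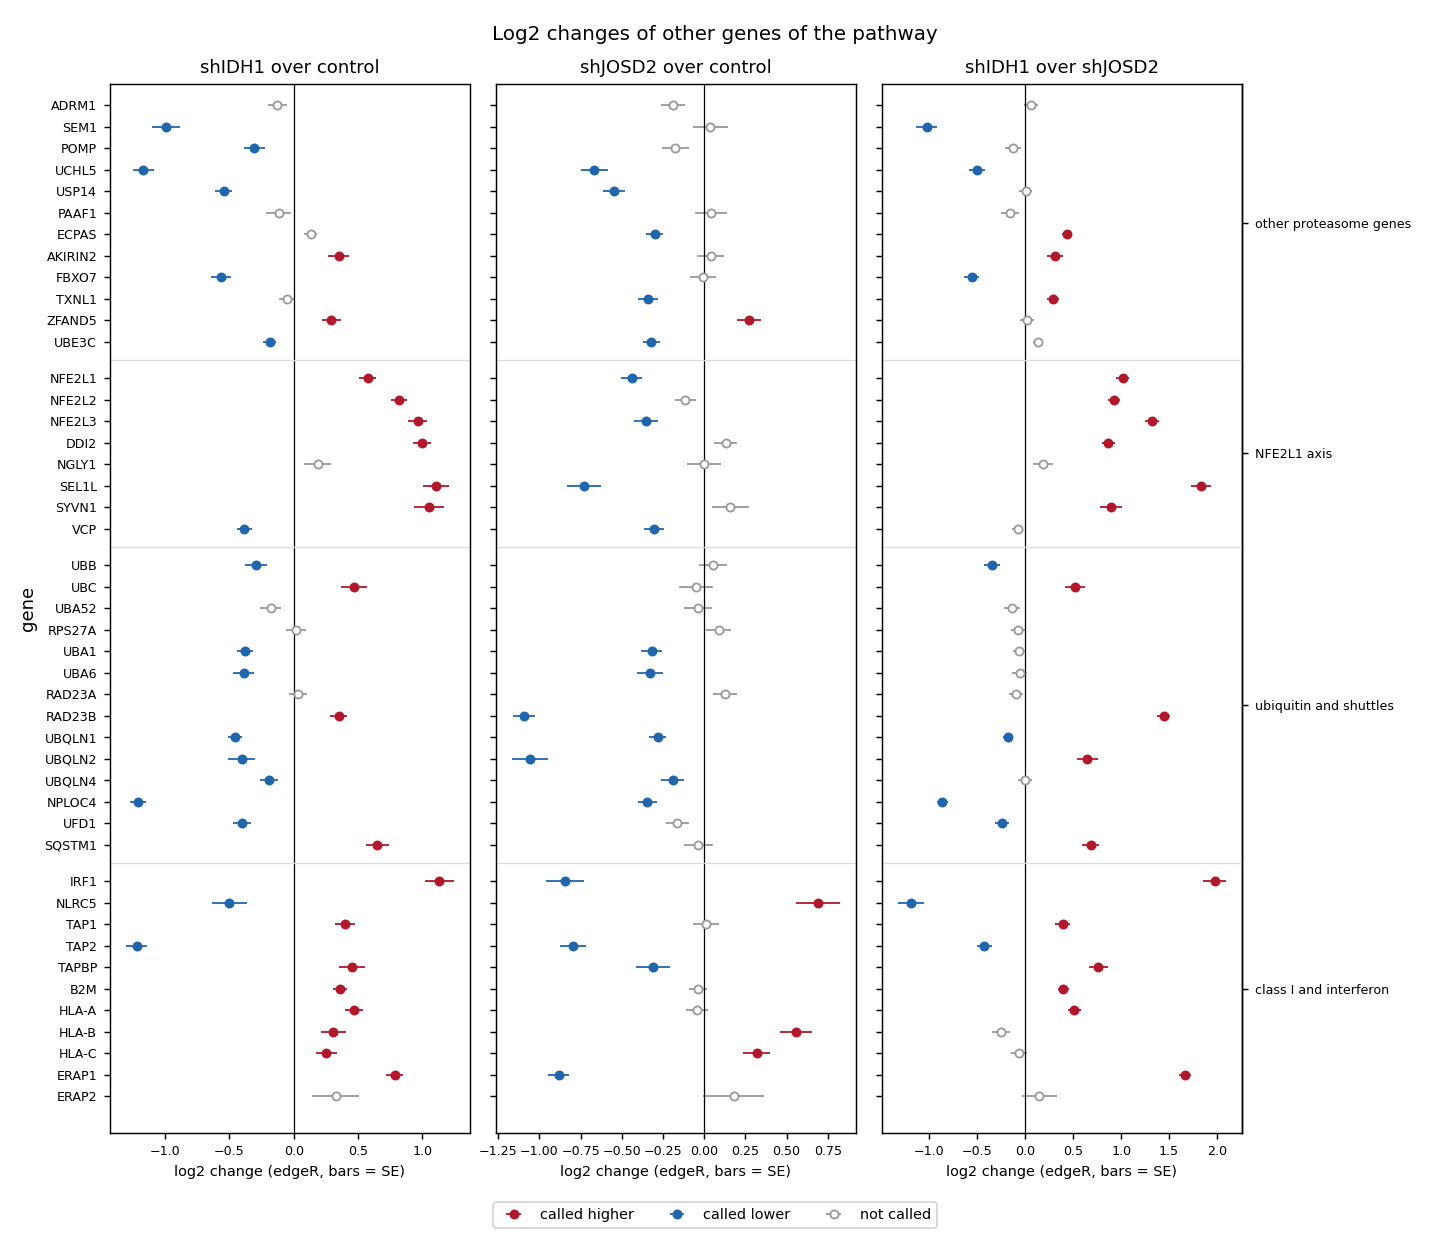
Log2 change (x axis) of other genes of the pathway (rows, grouped by role) in the 3 comparisons, with bars for the SE. In shIDH1 cells, under TMM scaling, 6 of the 8 genes listed around NFE2L1 were called higher, while in shJOSD2 cells 4 of 8 were called lower.

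Of the 49 members, 28 overlap another row of the table and 22 overlap one on the opposite strand. For 14 of them a partner had over 10% of the member's counts. Among these members were PSMB9, PSMC3IP, PSMG4, PSMG2, PSMC2, PSMC5, PSMD5, PSME2, PSME3 and PSMA3. The library kit marks strand, but the strand setting of the counting is not known here, which makes these values less certain. The same holds where reads of a subunit gene match its processed pseudogenes, which are among the 22 PSM rows that are not protein-coding. MALAT1 and NEAT1, nuclear RNAs that move with RNA quality, were higher in shIDH1 cells (0.60 ± 0.13 and 0.54 ± 0.07), and NEAT1 also in shJOSD2 cells (0.41 ± 0.07), and their part in the changes of the proteasome genes was not tested.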

How the data were processed

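RNA was measured in 9 libraries, 3 per group. Oligo(dT)-selected RNA became dUTP strand-marked libraries with molecular identifiers, read from both ends, per the labels' protocols. The submitters' processing notes name StringTie 1.3.4d, HISAT2 2.0.4, UMI-tools, cutadapt 1.9 and GRCh38. How reads were counted, and by which strand, is not given in the sources used here. The deposited counts are whole numbers, not normalized, per the file headers, and low counts gather at multiples of 4. The FPKM values were deposited by the authors, scaled by length and library size per the file headers.

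The counts were tested with edgeR 4.0.16 in R 4.3.3 (filterByExpr, TMM, 1 quasi-likelihood fit of all 9 libraries by group, Benjamini-Hochberg over 21492 genes at 0.05). SE was taken as |log2 change| divided by √F. FPKM levels were not rescaled. Pairs of replicates differed beyond sampling noise (chi-square per degree of freedom 3.62 to 10.0 after division by 4), so none was counted as 1 library. This step was also tested on simulated data. Alternatives were other filters and scalings, DESeq2 1.42.0, limma 3.58.1 on log2(FPKM + 1) or log2(FPKM + 0.1), a replicate block and left-out libraries. Totals of 66036276 to 71612713 counts make counting error small for all but the lowest members. Values in each library are given for the targeted genes, the catalytic subunits and, per class and comparison, for the called members that changed most, at most 3. Other lists follow the same limit, with a few regulators and markers added. The members, lists and naming rule were chosen with earlier results of these data known. Motifs were searched in RefSeq promoters (GRCh38.p14), with no entry for PSMA7, PSMB1, PSMB6, PSMB7, PSMD4 and PSMG3. A few genes of the context and marker lists are not reported here.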

Additional observations from a re-analysis of the deposited data

Results flagged for a closer look

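A pair of non-coding RNAs beside proteasome genes, outside the protein-coding rows compared above, were called higher than in control cells. They are among 22 PSM rows that are not protein-coding, many of them too low to be tested. Each was the only such row called higher in its comparison. Of all tested genes, 24.5% were called higher in shIDH1 cells and 18.2% in shJOSD2 cells, so calls of this kind were common. PSMA3-AS1, antisense to PSMA3, was at 2.61, 2.66 and 2.37 FPKM in shIDH1 cells, against 1.89, 1.62 and 2.28 FPKM in control cells, a log2 change of 0.39 ± 0.11 (edgeR adjusted p = 0.0106), while PSMA3 itself was not called there, at 0.05 ± 0.07. In shJOSD2 cells PSMA3-AS1 was at 2.67, 2.66 and 2.53 FPKM, also above every control library, though not called (0.29 ± 0.11, edgeR adjusted p = 0.0565). It did not pass the test between the hairpins (0.10 ± 0.11, edgeR adjusted p = 0.515). PSMG3-AS1 was at 2.75, 2.41 and 2.27 FPKM in shJOSD2 cells, against 1.73, 1.54 and 1.20 FPKM in control cells, a log2 change of 0.58 ± 0.14 (edgeR adjusted p = 0.00691), while PSMG3 was lower there, at -0.45 ± 0.12. In both cases the libraries of the hairpin lay above every control library. Whether reads were counted by strand is not known here, and reads of PSMA3 and its antisense partner cannot be told apart with certainty.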

How the results depend on the processing

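No called member turned round in any alternative, and of the called members 22 of 35 in shIDH1 against control, 21 of 32 in shJOSD2 against control and 16 of 24 between the hairpins kept their call in every alternative run. Replicate numbers did not pair the libraries (9 pairs with the same number, correlations of deviations from -0.018 to 0.0378). With the replicate number as a block, the members called were 34 lower and 1 higher, 31 and 1, and 11 and 11, in the same 3 comparisons. For shIDH1 against control, the median of -0.32 was -0.28 with at least 1 CPM in 3 libraries, -0.21 with upper-quartile scaling, -0.29 with limma on log2(FPKM + 1), over all genes and over those with a mean of at least 1 FPKM, -0.29 with counts divided by 4 and -0.22 with control replicate 1 alone. Members called higher were 6 with upper-quartile scaling and 3 with control replicate 1 alone, which left 21 lower. For shJOSD2 against control, the median of -0.35 was -0.19 without scaling factors, -0.26 with upper-quartile scaling, -0.17 and -0.19 with limma at pseudocounts of 1 and 0.1, -0.18 with limma over genes of at least 1 FPKM, and -0.23 with control replicate 1 alone. Limma called 20 members lower at either pseudocount. Members called higher were 4 without scaling factors and with limma over genes of at least 1 FPKM, and 2 with the CPM filter, upper-quartile scaling, DESeq2, limma at either pseudocount and counts divided by 4. Between the hairpins, the median of 0.04 was 0.0657 with RLE factors, 0.0599 with upper-quartile scaling, 0.0757 with only those 2 groups, -0.12 without scaling factors, and -0.10, -0.11 and -0.10 with limma at pseudocounts of 1 and 0.1 and over genes of at least 1 FPKM. Causes were not tested.

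With each library left out in turn, the medians lay between -0.35 and -0.28, between -0.38 and -0.31, and between 0.011 and 0.0395 in the same order of comparisons. Members called lower numbered 30 to 34, 26 to 37 and 8 to 14, and members called higher 1 to 2, 1 to 2 and 9 to 11. The 8 were found without shJOSD2 replicate 3. The difference in immunoproteasome share (0.658 percentage points for shIDH1 and 0.961 for shJOSD2 over control, -0.302 between hairpins) was 1.08, 2.03 and -0.941 on counts, and 2.51 and 2.90 over control when PSMB8 was set against PSMB5 and PSMB8 only. With a library left out it lay between 0.494 and 0.862, 0.833 and 1.04, and -0.466 and -0.0985. Depth limits PSMB9, with 140 to 314 counts per library, and PSMC3IP, with 197 to 938.

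Over all tested genes, the split of calls in shJOSD2 against control was 3907 higher and 4330 lower with TMM, and 5638 higher and 2934 lower without scaling factors. In shIDH1 against control it was 5258 higher and 5511 lower, and 6176 and 4682 with upper-quartile scaling. Between the hairpins it was 4479 higher and 5156 lower, and 3316 and 6653 without scaling factors.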
